A study of Mus musculus with 48 samples.

Results

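Synaptotagmins are membrane-trafficking proteins with tandem C2 domains. In several members these domains bind calcium and lipid and couple a rise in calcium to the fusion of vesicles with the plasma membrane, while other members bind calcium weakly or not at all. Syt1 and Syt2 are known as fast sensors for transmitter release, and Syt7 as a slower sensor of high affinity that serves asynchronous release and facilitation. Syt3, Syt6 and Syt10 belong to a group linked to other exocytosis, such as that of dense-core vesicles, the acrosome and IGF-1, and to receptor trafficking at the postsynaptic side. Syt4 is found on dense-core and neuropeptide vesicles, and Syt17, which lacks a transmembrane segment, is linked to trafficking near the Golgi and to neurite growth.

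The 10 genes described here are Syt1, Syt2, Syt3, Syt4, Syt5, Syt6, Syt7, Syt9, Syt10 and Syt17. They were chosen by symbol, matched to the Ensembl identifiers of the deposited count table, and all 10 were found among its 37620 genes. There were 48 libraries, 3 for each of 16 groups of hippocampal neurons of the mouse. Of these 16 populations, 10 were CA1 pyramidal cells: dorsal, intermediate, ventral, proximal, distal, superficial and deep cells, dorsal cells projecting to the postsubiculum, and ventral cells projecting to the amygdala or to the nucleus accumbens. CA3 pyramidal cells and dentate gyrus (DG) granule cells were each taken from the dorsal and the ventral end. The remaining populations were CA1 interneurons named for parvalbumin (PV) or somatostatin (SST). All cells were fluorescent neurons picked by hand from microdissected slices. Strain, age, sex, the fluorescent line or tracer and the number of animals per library are not given in the sources used here. Levels are in CPM, read counts scaled to a common total of reads in genes (with TMM factors over all 48 libraries), and are given for replicates 1, 2 and 3 in that order. CPM was used to compare 1 gene between populations, and the authors' FPKM, which is scaled by gene length, to compare genes with each other. Adjusted p-values come from edgeR's quasi-likelihood F test with Benjamini-Hochberg adjustment over every gene in the fit. A call means an adjusted p below 0.05. Whether libraries of 2 groups overlap is given as a description only. The share of all genes without overlap was not counted. Standard errors (SE) are on the log2 scale.

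Reads in genes ranged from 5116568 to 31984948 per library, and the lowest depth was in ventral CA1 (5116568 to 8354457 reads). Marker genes mostly followed the labels. Prox1, a granule cell marker, was at 1062 CPM or more in every DG library and at most 25.7 CPM elsewhere. Pvalb was at 316 to 381 CPM in PV cells, and Sst at 3653 CPM or more in SST cells. Sst was also read in PV cells, at 953, 816 and 249 CPM. The summed level of 7 GABAergic markers was 5777 to 7329 CPM in the interneuron libraries. In most pyramidal libraries that sum was far lower, but it was 263, 624 and 1039 CPM in deep CA1, 200 CPM in superficial replicate 3 and 267 CPM in proximal replicate 1.

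Syt1 was the most abundant member in every population when scaled by length. It made up 31.9% (dorsal DG) to 80.0% (SST) of the summed FPKM of the 10 genes. In dorsal CA3 its mean was 846 FPKM, the highest level of any of the genes in any population. In dorsal DG it was 169 FPKM and Syt7 was 103 FPKM, so that Syt7 there held 19.3% of the sum, Syt5 18.2% and Syt17 15.2%. In ventral DG Syt17 was second at 21.0%. In PV interneurons Syt2 reached 88.6 FPKM, 12.1% of the sum, behind Syt1 and Syt4.

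**Figure D1:**
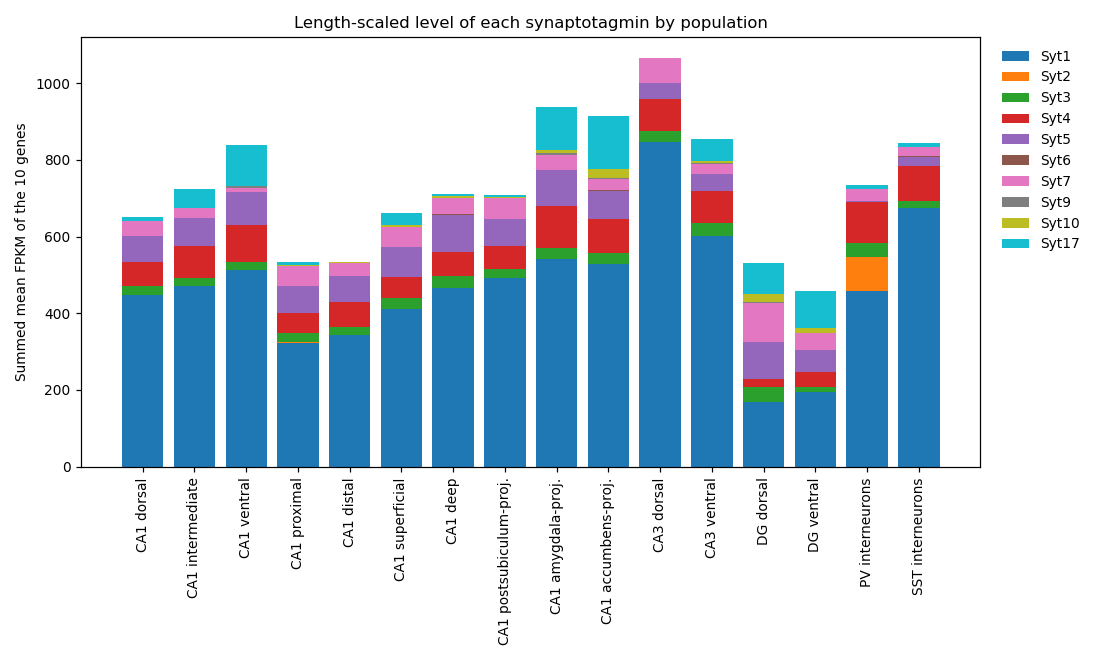
Stacked bars of the mean FPKM of the 10 genes (vertical axis, linear) over 3 libraries in each of the 16 populations, with 1 colour per gene. Syt1 forms the largest block in each bar, from 169 FPKM in dorsal DG to 846 FPKM in dorsal CA3, and Syt2 is a visible block in PV interneurons, at 88.6 FPKM.

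**Figure D2:**
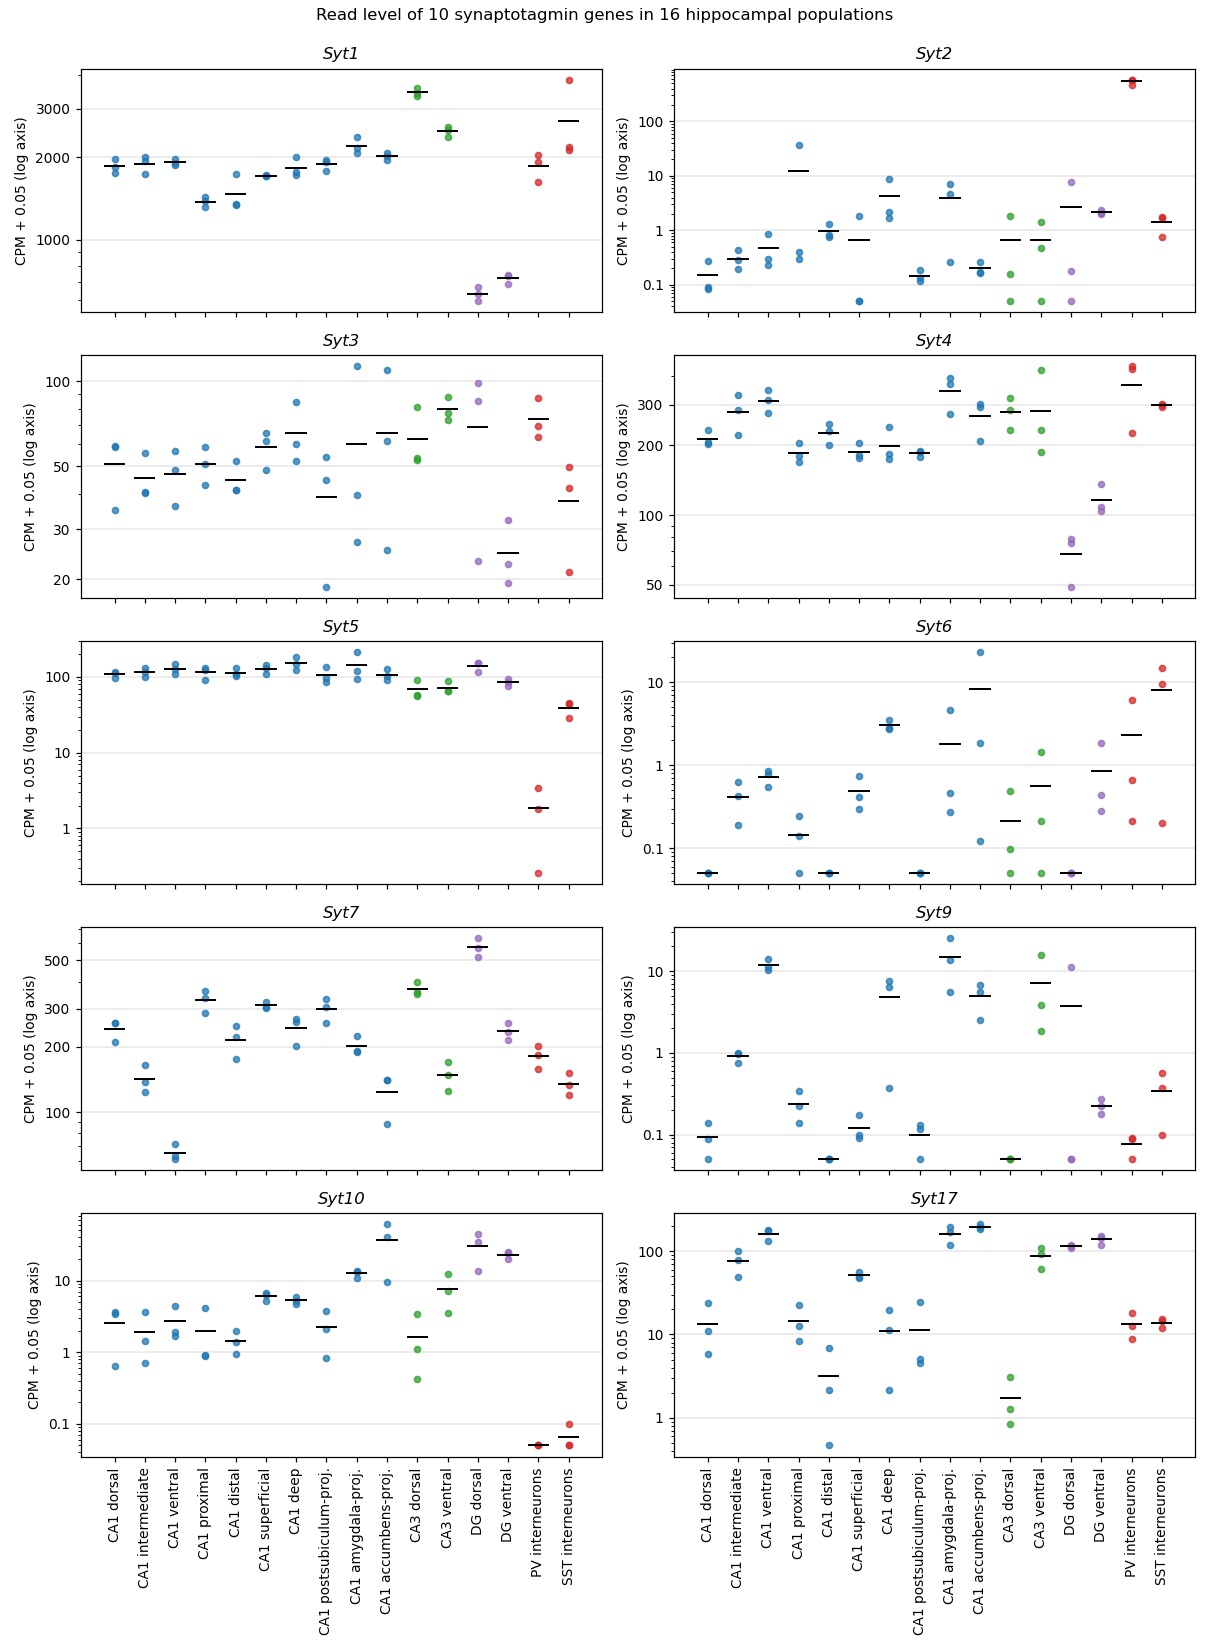
CPM of each gene in each library (points) and the population mean (black line), on log axes after adding 0.05; blue is CA1, green CA3, purple DG and red interneurons. Syt1, Syt3, Syt4 and Syt7 are read in all 16 populations, while Syt2 stands at 468 to 587 CPM in PV interneurons and at 36.7 CPM or less in the other 45 libraries.

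The 10 genes fell into broadly and narrowly read ones. Syt1, Syt3, Syt4 and Syt7 had a mean of at least 10 CPM in all 16 populations, Syt5 in 15 and Syt17 in 14. Syt10 reached that level in 4 populations, Syt2 and Syt9 in 2, and Syt6 in 0. Across the 16 populations 9 of the 10 genes were called as differing somewhere, against 65.3% of all genes tested. Syt3 was not called there, and its population means ran from 24.7 ± 6.72 CPM (SD, n = 3) in ventral DG to 79.4 ± 7.78 CPM in ventral CA3. With no filter on low counts Syt3 was called as well.

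The start regions of 6 of the 10 genes were taken from a table of RefSeq promoters (build GRCm38.p6, 250 bases before to 50 bases after each start). For the 10 genes 1 chromosome of that table was left out, so the other genes need not be absent from it. The sequences of Syt1, which was read in all 16 populations, are shown beside those of Syt2 and Syt9, which were read in few, each 5′ to 3′ on the gene's strand. Capitals mark GC boxes (GGGCGG) and the ERR half-site (AAGGTCA), on either strand. The 2 Syt1 starts lie at chr10:109009062-109009361 and chr10:109010926-109011225 on the minus strand. The Syt2 starts lie at chr1:134646362-134646661 and chr1:134709050-134709349, and the Syt9 start at chr7:107370540-107370839, all on the plus strand.
Syt1 start A: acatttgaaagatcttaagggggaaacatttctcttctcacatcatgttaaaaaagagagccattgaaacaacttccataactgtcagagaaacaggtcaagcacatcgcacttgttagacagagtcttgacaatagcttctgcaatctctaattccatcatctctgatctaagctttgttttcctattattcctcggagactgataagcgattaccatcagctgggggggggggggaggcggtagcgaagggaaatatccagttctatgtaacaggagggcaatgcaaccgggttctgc
Syt1 start B: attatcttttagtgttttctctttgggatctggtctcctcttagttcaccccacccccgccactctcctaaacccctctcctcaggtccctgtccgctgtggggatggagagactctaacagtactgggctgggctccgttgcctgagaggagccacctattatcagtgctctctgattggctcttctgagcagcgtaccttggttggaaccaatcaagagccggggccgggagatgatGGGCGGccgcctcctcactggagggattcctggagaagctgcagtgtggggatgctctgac
Syt2 start A: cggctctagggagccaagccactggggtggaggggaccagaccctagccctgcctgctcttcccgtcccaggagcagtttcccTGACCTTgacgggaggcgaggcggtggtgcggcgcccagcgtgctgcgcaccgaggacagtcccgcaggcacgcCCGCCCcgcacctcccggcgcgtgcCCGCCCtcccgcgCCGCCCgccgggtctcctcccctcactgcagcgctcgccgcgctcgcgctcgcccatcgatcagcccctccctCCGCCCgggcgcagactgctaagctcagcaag
Syt2 start B: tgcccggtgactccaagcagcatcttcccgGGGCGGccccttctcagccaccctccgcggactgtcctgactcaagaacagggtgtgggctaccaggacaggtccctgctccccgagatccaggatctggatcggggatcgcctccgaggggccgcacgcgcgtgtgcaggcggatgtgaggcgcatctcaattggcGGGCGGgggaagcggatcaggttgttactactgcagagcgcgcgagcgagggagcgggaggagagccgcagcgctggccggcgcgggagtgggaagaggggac
Syt9: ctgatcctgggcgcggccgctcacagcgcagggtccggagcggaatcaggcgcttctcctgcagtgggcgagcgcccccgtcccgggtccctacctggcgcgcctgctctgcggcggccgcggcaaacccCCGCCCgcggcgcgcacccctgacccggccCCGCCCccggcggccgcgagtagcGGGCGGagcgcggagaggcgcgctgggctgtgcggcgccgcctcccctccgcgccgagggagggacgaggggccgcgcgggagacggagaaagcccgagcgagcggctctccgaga
The 2 Syt1 windows hold 6 and 8 CpG dinucleotides, near the median of 7 over 32851 promoters. The Syt2 windows hold 34 and 28 and the Syt9 window 49, a number that 99.0% of all promoters fall short of. The windows not shown do not follow the number of populations. Syt3, with a mean of at least 10 CPM in all 16 populations, holds 17. Syt6, which reached that level in 0 populations, holds 16, 19 and 19, and Syt10, which reached it in 4, holds 35. GC boxes number 4 and 2 in the Syt2 windows, 3 in the Syt9 window, and 0 and 1 in the Syt1 windows, and 35.7% of all promoters hold at least 1. The ERR half-site is in 1 Syt2 window and in 4.72% of all promoters. The E-box (CANNTG), which is not capitalised, is found 3 times in 1 Syt1 window and 1 time in 1 Syt2 window, and in 72.3% of all promoters. None of the 5 windows shown holds TATAAA or TGACGTCA (CRE), which are found in 13.6% and 1.79% of all promoters. Both strands were searched for each motif.

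Syt1, the main fast calcium sensor of forebrain synapses, was highest in dorsal CA3 and lowest in granule cells. In dorsal CA3 it was read at 3429, 3587 and 3356 CPM, and in ventral CA3 at 2521, 2374 and 2586 CPM. In dorsal DG it was at 596, 668 and 633 CPM, and in ventral DG at 686, 744 and 737 CPM. The 10 CA1 populations lay between, with means from 1373 ± 56.6 CPM in proximal to 2201 ± 156 CPM in amygdala-projecting cells. The highest population mean was 5.47 times the lowest. The 3 SST libraries did not agree on Syt1, at 2132, 2180 and 3841 CPM. Of the 15 steps in the order of populations, 4 separated all libraries of one population from all of the next. These lay below ventral CA3, below deep CA1, between proximal CA1 and ventral DG, and between ventral and dorsal DG.

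Syt1 differed between the 3 regions, whether CA1, CA3 and DG were averaged over dorsal and ventral cells on the log scale or read library by library. It was lower in CA1 than in CA3 by 0.62 on the log2 scale (SE 0.06, 1.54-fold, adjusted p = 9.66e-08), and higher in CA1 than in DG by 1.49 (SE 0.06, 2.81-fold, adjusted p = 7.93e-14). CA3 exceeded DG 4.32-fold (log2 2.11, SE 0.06, adjusted p = 3.39e-16). In each of these comparisons no library of one region overlapped the other region. Between CA1 and CA3, 4 of the 10 genes were called, against 13.5% of all genes. Between CA1 and DG 5 were called against 33.1%, and between CA3 and DG 7 against 36.5%.

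Syt4 also had its lowest levels in granule cells. It was read at 48.7, 78.8 and 75.5 CPM in dorsal DG and at 104, 136 and 108 CPM in ventral DG. Each of the other 14 populations had a mean of 184.9 CPM or more, with the highest, 365 ± 120 CPM, in PV interneurons. CA1 exceeded DG 2.94-fold (log2 1.56, SE 0.17, adjusted p = 4.04e-07) and CA3 exceeded DG 3.15-fold (log2 1.65, SE 0.17, adjusted p = 1.68e-07).

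Averaged over dorsal and ventral cells on the log scale, Syt7, Syt10 and Syt17 were higher in DG than in both pyramidal regions. This order did not hold for every population. The mean of Syt17 in ventral CA1, 162 CPM, was above those in ventral DG (138 CPM) and dorsal DG (115 CPM). Syt7 was higher in DG at each end, but its mean in ventral DG, 236 CPM, was below those in dorsal CA3 (369 CPM) and dorsal CA1 (242 CPM). Syt7, the slow sensor, was lower in CA1 than in DG by 1.54 on the log2 scale (SE 0.10, 2.91-fold, adjusted p = 1.90e-10) and lower in CA3 than in DG by 0.66 (SE 0.10, 1.58-fold, adjusted p = 2.01e-05). Its dorsal and ventral levels differed so much within each region that libraries of the regions overlapped. Syt10, linked to secretion of IGF-1, was read at 13.3, 44.4 and 34.2 CPM in dorsal DG and at 19.8, 25.3 and 23.9 CPM in ventral DG. In dorsal and ventral CA1 its 6 libraries lay between 0.586 and 4.39 CPM. That was a 10.2-fold difference in the fit (log2 -3.34, SE 0.55, adjusted p = 6.25e-05), and CA3 was lower than DG 7.68-fold (log2 -2.94, SE 0.53, adjusted p = 0.000185). Syt17 in CA3 was lower than in DG by 3.38 on the log2 scale (SE 0.30, 10.4-fold, adjusted p = 1.94e-08). Syt17 in CA1 was lower than in DG by 1.42 (SE 0.27, adjusted p = 0.000384) and higher than in CA3 by 1.96 (SE 0.29, adjusted p = 4.49e-05), with libraries of the regions overlapping in both cases.

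Syt5, found on dense-core vesicles, was lower in CA3 than in CA1 and DG. It was read at 90.5, 56.3 and 58.0 CPM in dorsal CA3 and at 65.3, 64.2 and 88.0 CPM in ventral CA3. CA1 exceeded CA3 1.70-fold (log2 0.77, SE 0.15, adjusted p = 0.000666), with no overlap, and CA3 was below DG by 0.65 on the log2 scale (SE 0.15, adjusted p = 0.00144), with overlap. Syt3, linked to receptor internalisation, was higher in CA3 than in DG by 0.76 on the log2 scale (SE 0.26, adjusted p = 0.0276), with overlapping libraries. That call was lost without dorsal CA3 replicate 1 (adjusted p = 0.0745), ventral CA3 replicate 1 (0.054), ventral DG replicate 2 (0.0547) or ventral DG replicate 3 (0.0656), and in a fit to all 48 libraries (0.0547).

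Along the long axis of CA1, from dorsal to ventral, Syt7 fell and Syt17, Syt9 and Syt4 rose. Syt7 was read at 257, 257 and 211 CPM in dorsal cells, 165, 138 and 124 CPM in intermediate cells, and 63.1, 60.7 and 71.6 CPM in ventral cells. No library of one position overlapped another. Ventral CA1 had the lowest mean of all 16 populations, below the ventral cells projecting to the amygdala (202 CPM) or the accumbens (123 CPM). Dorsal exceeded ventral cells 3.55-fold (log2 1.83, SE 0.15, adjusted p = 4.80e-08). Both steps were called, dorsal over intermediate 1.65-fold (adjusted p = 0.00391) and intermediate over ventral 2.16-fold (adjusted p = 9.73e-05). Of the 10 genes, 8 passed the filter on low counts in this fit, and Syt2 and Syt6 did not. Between dorsal and ventral cells 4 of the 8 were called, against 15.1% of all genes tested. Between dorsal and intermediate cells 3 were called against 4.93%, and between intermediate and ventral cells 2 against 5.03%.

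Syt17 ran the other way in CA1. It was read at 5.82, 23.7 and 10.9 CPM in dorsal cells, 49.3, 101 and 77.9 CPM in intermediate cells, and 175, 134 and 178 CPM in ventral cells. The 3 positions did not overlap. The difference between ventral and dorsal cells was 12.6-fold (log2 of dorsal over ventral -3.65, SE 0.49, adjusted p = 0.000952), and 20.01-fold without dorsal replicate 2. Intermediate cells exceeded dorsal cells 5.81-fold (adjusted p = 0.0178), or 9.28-fold without dorsal replicate 2. This call was lost without dorsal replicate 3 (adjusted p = 0.111), with no filter on low counts (0.0718) and in the fit to all 48 libraries (0.0899). Intermediate and ventral cells differed by 1.11 on the log2 scale (SE 0.45), which was not called (adjusted p = 0.244).

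Syt9 was nearly absent from the reads of dorsal CA1, with 1, 0 and 2 reads. It had 5, 10 and 8 reads in intermediate cells (0.713, 0.937 and 0.915 CPM) and 111, 56 and 97 reads in ventral cells (13.9, 10.1 and 11.2 CPM). Every ventral library was above every intermediate library, and every intermediate library above every dorsal one. By pooled reads the ventral level was 304 times the dorsal level (95% exact binomial interval 103 to 1483, adjusted p = 3.16e-06). The intermediate level was 22.2 times the dorsal level (interval 6.71 to 115, adjusted p = 0.00607). These intervals cover counting error only, since amplified reads without molecular identifiers are not independent molecules. Without dorsal replicate 2 the ventral ratio was 188 and without dorsal replicate 3 it was 648, and the intermediate ratio was 13.7 and 47.3. Ventral cells exceeded intermediate cells 13.7-fold (adjusted p = 0.00286). In the fit to all 48 libraries the ventral call held, while those of dorsal against intermediate cells (adjusted p = 0.398) and intermediate against ventral cells (0.429) were lost.

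Syt4 was read at 207, 233 and 202 CPM in dorsal CA1 and at 314, 275 and 348 CPM in ventral CA1, with no overlap. The difference was 1.52-fold (log2 of dorsal over ventral -0.61, SE 0.13, adjusted p = 0.00295), and the call was lost in the fit to all 48 libraries (adjusted p = 0.222). Intermediate cells, at 221, 331 and 286 CPM, overlapped both. Syt1 was not called along the CA1 axis, with a mean of 1852 ± 111 CPM at the dorsal end and 1915 ± 53.5 CPM at the ventral end (log2 difference -0.11, SE 0.07, adjusted p = 0.398). Syt3, Syt5 and Syt10 were not called either. Syt6, best known from the acrosome of sperm, had 0 reads in dorsal CA1 and 0.502 to 0.809 CPM in ventral CA1, and did not pass the filter on low counts in edgeR. Without the filter edgeR called it only at the threshold (adjusted p = 0.05 after rounding). DESeq2 called it as well (adjusted p = 0.00823). The GABAergic marker sum was 0.558 to 2.02 CPM in dorsal and 17.2 to 35.6 CPM in ventral CA1, and its part in these differences was not tested.

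**Figure D3:**
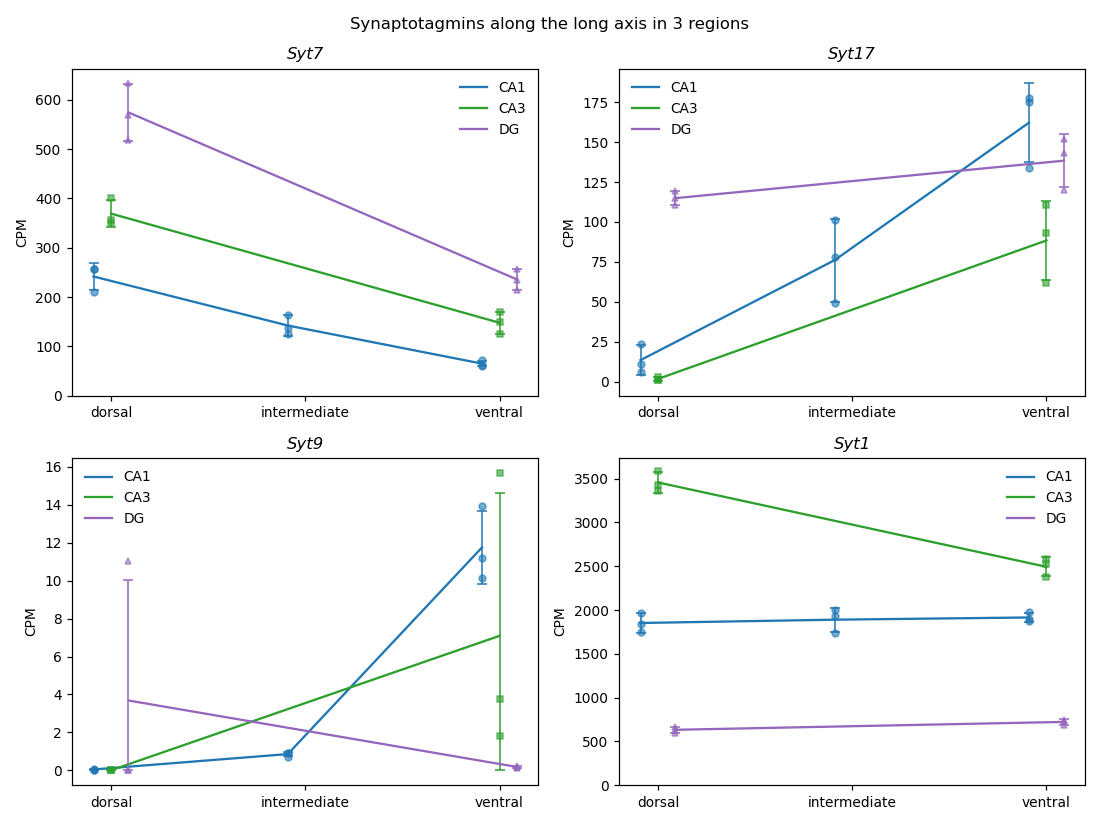
CPM (linear axes) of Syt7, Syt17, Syt9 and Syt1 in dorsal, intermediate (CA1 only) and ventral cells of CA1, CA3 and DG; points are libraries, lines join means and bars are 1 SD over 3 libraries, with lower ends stopped at 0. Syt7 falls from dorsal to ventral in all 3 regions, for example from 574 to 236 CPM in DG, while Syt17 rises in CA1 and CA3 and stays between 111 and 152 CPM in DG.

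In CA3, 4 of the 10 genes were called between dorsal and ventral cells, against 4.97% of all genes tested. Syt7 fell from 357, 400 and 350 CPM in dorsal to 125, 149 and 170 CPM in ventral cells (2.50-fold, log2 1.32, SE 0.14, adjusted p = 3.13e-06). Syt1 was 1.39-fold higher in dorsal cells (log2 0.48, SE 0.08, adjusted p = 0.000741). Neither gene had overlapping libraries. Syt17 had 3.07, 0.783 and 1.21 CPM in dorsal CA3, the lowest mean of all populations, and 111, 93.1 and 61.5 CPM in ventral CA3. This was a 52.5-fold difference (log2 of dorsal over ventral -5.71, SE 0.48, adjusted p = 1.21e-07), and 88.4-fold without dorsal replicate 1. Syt9 had no read in dorsal CA3 and 43, 94 and 453 reads in ventral CA3 (1.81, 3.77 and 15.7 CPM). Against a floor of 3 reads per library, ventral cells were at least 45.3-fold higher (adjusted p = 0.00971), and at least 17.8-fold higher without ventral replicate 3. That call was lost without dorsal replicate 2 (adjusted p = 0.0511) or dorsal replicate 3 (0.0505). Syt10 was at 0.368 to 3.33 CPM in dorsal and 3.43 to 12.4 CPM in ventral CA3, without a call by edgeR (adjusted p = 0.0986). It was called by DESeq2 (adjusted p = 0.0284), with no filter on low counts (0.0246) and without dorsal replicate 2 (0.0333). The summed level of 4 CA1 markers was 10.8 to 21.2 CPM in dorsal CA3, 61.4 to 86.1 CPM in ventral CA3 and 534 to 749 CPM in ventral CA1. The part of CA1 cells in the Syt9 and Syt17 differences was not tested.

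In DG 4 of the 10 genes were called along the axis, against 19.4% of all genes tested. Syt7 was at 519, 569 and 634 CPM in dorsal granule cells, its highest population, and at 257, 235 and 215 CPM in ventral granule cells (2.47-fold, log2 1.3, SE 0.14, adjusted p = 2.20e-06). Syt5 was at 154, 152 and 115 CPM in dorsal and 86.3, 75.9 and 94.2 CPM in ventral cells (log2 0.74, SE 0.21, adjusted p = 0.0164), and Syt4 was lower in dorsal cells (log2 -0.76, SE 0.24, adjusted p = 0.0307). For both genes the groups did not overlap. The Syt5 call was lost without ventral replicate 1 (adjusted p = 0.0507) or 2 (0.0756) and in the fit to all 48 libraries (0.176). The Syt4 call was lost without dorsal replicate 1 (adjusted p = 0.0994), ventral replicate 2 (0.117) or ventral replicate 3 (0.0522). Syt3 was called (log2 1.5, SE 0.38, adjusted p = 0.00855) although its libraries overlapped, at 98.1, 85.3 and 23.1 CPM in dorsal and 32.2, 22.5 and 19.3 CPM in ventral cells. Syt17 was read at 115, 119 and 111 CPM in dorsal and 143, 152 and 120 CPM in ventral cells, which was not called (adjusted p = 0.689). Syt9 was found in 1 dorsal library, replicate 2, at 11.0 CPM with 80 reads, and had no read in the other two. It was not called between dorsal and ventral DG (adjusted p = 0.0556), but was by DESeq2 (0.0177), with no filter on low counts (0.0475) and in the fit to all 48 libraries (0.0419).

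The difference between regions in the long-axis change was tested as an interaction. Between CA1 and CA3 2 of the 10 genes were called, against 3.52% of all genes. Syt1 was called (log2 -0.56, SE 0.12, adjusted p = 0.00546), being higher in dorsal than in ventral CA3, with no call in CA1. The fit to all 48 libraries lost this call (adjusted p = 0.189). Syt17 was called (log2 2.09, SE 0.57, adjusted p = 0.0464), with the larger change in CA3. The Syt17 call was lost in 13 of the alternatives, 9 of which left out 1 library, with adjusted p up to 0.196 among those 9. Between CA1 and DG 3 genes were called, against 9.71% of all genes. Syt17 changed by 3.38 more on the log2 scale in CA1 than in DG (log2 -3.38, SE 0.55, adjusted p = 0.000468). Syt5 (log2 -1.0, SE 0.29, adjusted p = 0.0316) lost its call in 8 of the alternatives, 7 of which left out 1 library, with adjusted p of 0.0598 to 0.089 among the 7. Syt9 was called (adjusted p = 0.00258) and rested on 1 dorsal DG library: without dorsal DG replicate 2 the adjusted p was 0.995. For Syt7, which fell from dorsal to ventral in all 3 regions, the interaction was not called against CA3 (log2 0.53, SE 0.20, adjusted p = 0.209) or DG (log2 0.55, SE 0.20, adjusted p = 0.0845), although the latter was called without dorsal DG replicate 3 (adjusted p = 0.0456).

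Within CA1 the other axes gave fewer differences. Between proximal and distal cells none of the 8 genes tested was called by edgeR, against 1.06% of all genes. At an unadjusted p under 0.05 there were 3 (Syt7, Syt2 and Syt17), beside 1714 of 12710 genes. DESeq2 called 1, Syt7, beside 773 of 13857 genes. With no filter on low counts edgeR also called Syt7, beside 301 of 20527 genes. Syt7 was read at 360, 337 and 286 CPM in proximal and 177, 222 and 251 CPM in distal cells, which did not overlap (1.52-fold, log2 0.61, SE 0.16, adjusted p = 0.0955). Syt17 was at 8.27, 12.5 and 22.4 CPM in proximal and 0.414, 2.13 and 6.74 CPM in distal cells, also without overlap and without a call (adjusted p = 0.247).

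Between superficial and deep cells none of the 9 genes tested was called by edgeR, against 2.48% of all genes. At an unadjusted p under 0.05 there were 3 (Syt7, Syt6 and Syt17), beside 1746 of 12533 genes. DESeq2 called 3 (Syt6, Syt17 and Syt9), beside 913 of 14208 genes. Syt17 was read at 56.7, 49.5 and 47.5 CPM in superficial and 2.1, 19.6 and 11.1 CPM in deep cells, and the groups did not overlap (log2 2.18, SE 0.57, adjusted p = 0.0743). It was called without deep replicate 1 (adjusted p = 0.027) or deep replicate 2 (0.0335), and with the replicate number as a block (0.0328). Syt6 had 0.249 to 0.702 CPM in superficial and 2.80, 2.68 and 3.44 CPM in deep cells (adjusted p = 0.214). Syt9 was at 6.37, 0.325 and 7.44 CPM in deep cells and at most 0.123 CPM in superficial cells, and did not pass the filter on low counts. It was called with no filter (adjusted p = 0.00948) and without deep replicate 2 (0.0125). The GABAergic marker sum was 263 to 1039 CPM in deep and 16.6 to 200 CPM in superficial libraries, and its part in these values was not tested. Without superficial replicate 3 and deep replicate 3, the 2 libraries with the highest sums of their groups, 0 synaptotagmins were called, beside 59 of 12987 genes. There had been no call to lose, and the deep libraries that remained still held sums of 263 and 624 CPM. This count therefore does not test the part of GABAergic reads.

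Among ventral cells, Syt7 was called in amygdala-projecting cells and Syt10 in accumbens-projecting cells, each against ventral CA1. Between amygdala-projecting and ventral cells 1 of the 10 genes was called, against 2.38% of all genes. Syt7 was at 190, 224 and 191 CPM in amygdala-projecting cells, above each ventral CA1 library (3.12-fold, log2 1.64, SE 0.26, adjusted p = 0.00216). Between accumbens-projecting and ventral cells 1 gene was called, against 2.04%. This was Syt10, at 9.45, 61.3 and 40.6 CPM in accumbens-projecting and 1.88, 1.63 and 4.39 CPM in ventral cells (14.3-fold, log2 3.84, SE 0.77, adjusted p = 0.0162). The call was lost without accumbens replicate 2 (adjusted p = 0.0526), ventral replicate 1 (0.118) or ventral replicate 2 (0.127). Syt7 was at 141, 141 and 88.1 CPM in accumbens-projecting cells, above the ventral libraries but not called by edgeR (log2 0.95, SE 0.25, adjusted p = 0.072). It was called by DESeq2 (adjusted p = 0.00455), with no filter on low counts (0.0483), in the fit to all 48 libraries (0.000374) and without accumbens replicate 3 (0.0301). Both comparisons share the ventral CA1 libraries.

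Between amygdala- and accumbens-projecting cells none of the 10 genes was called by edgeR, where 0.0231% of all genes were called. At an unadjusted p under 0.05 there were 3 (Syt7, Syt2 and Syt10), beside 1193 of 12981 genes. DESeq2 called 1, Syt2, beside 385 of 13289 genes. The fit to all 48 libraries called Syt7 (adjusted p = 0.0197), beside 354 of 17918 genes. Syt17 had its highest means in these cells and in ventral CA1, at 197 ± 13.2 CPM in accumbens-projecting, 162 ± 38.6 CPM in amygdala-projecting and 162 ± 24.6 CPM in ventral cells. Syt9 was highest in amygdala-projecting cells, at 5.57, 25.4 and 13.6 CPM. The summed level of 4 endothelial markers was 38.4 to 99.8 CPM in amygdala-projecting, 11.8 to 53.4 CPM in accumbens-projecting and 0 to 3.93 CPM in ventral cells. Most of it was Kdr, and Cldn5 was at 0 in all 9 libraries. Accumbens replicate 3 also held Sst at 506 CPM, together with the highest Syt6 value of all libraries, 23.2 CPM. The part of these markers in the results was not tested.

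Cells projecting to the postsubiculum, set against dorsal CA1, gave no call among the 7 genes tested by edgeR, against 10.8% of all genes. At an unadjusted p under 0.05 there was 1, Syt7, beside 3284 of 12663 genes. DESeq2 called 0, beside 2770 of 13964 genes. Syt7 was at 334, 306 and 257 CPM in these cells, and 257, 257 and 211 CPM in dorsal CA1 (log2 0.35, SE 0.13, adjusted p = 0.119). Syt9 and Syt17 stood near their dorsal levels, with 0 to 1 read of Syt9 per library and 11.3 ± 11.4 CPM of Syt17.

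Syt2, the fast sensor known from parvalbumin-positive basket cell terminals, was read strongly in PV interneurons only among the populations sequenced here. It was at 587, 468 and 584 CPM in the PV libraries and at 1.65, 1.73 and 0.699 CPM in the SST libraries. No library outside PV exceeded 36.7 CPM. PV exceeded SST cells 398-fold (log2 8.64, SE 0.43, adjusted p = 4.62e-07) and dorsal CA1 5507-fold (log2 12.43, SE 0.53, adjusted p = 1.36e-08), where the 3 libraries held 1, 1 and 5 reads. Without dorsal replicate 3, which held the 5 reads, the latter was 12653-fold. SST cells exceeded dorsal CA1 13.8-fold (log2 3.79, SE 0.54, adjusted p = 0.000225), or 32.1-fold without dorsal replicate 3, and the call was lost in the fit to all 48 libraries (adjusted p = 0.142). Between PV and SST cells 2 of the 9 genes tested were called, against 6.15% of all genes. PV against dorsal CA1 gave 5 of 9 against 29.7%, and SST against dorsal CA1 gave 4 of 9 against 27.4%.

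The highest Syt2 value outside PV cells was in 1 proximal CA1 library. Replicate 1 held 36.7 CPM, and replicates 2 and 3 held 0.243 and 0.356 CPM. The same library held Pvalb at 80.5 CPM and Gad1 at 44.8 CPM, against at most 0.178 and 0.356 CPM in the other two. In bulk samples fewer cells of a type and less RNA per cell cannot be told apart. Other libraries with more than 4 CPM of Syt2 were deep replicate 3 (8.64 CPM, with a GABAergic sum of 1039 CPM), dorsal DG replicate 2 (7.59 CPM, sum 111 CPM), and amygdala-projecting replicates 2 and 3 (6.90 and 4.54 CPM, sums 35.3 and 60.4 CPM). Pvalb was at 0 in the DG and amygdala-projecting libraries named here. The part of PV cells in these values was not tested.

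**Figure D4:**
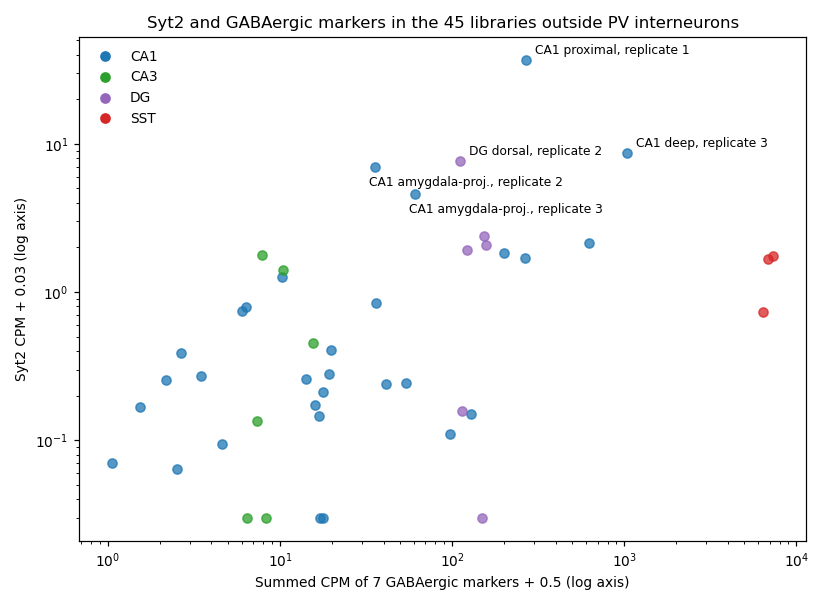
Syt2 CPM after adding 0.03 (vertical log axis) against the summed CPM of 7 GABAergic markers after adding 0.5 (horizontal log axis), 1 point for each of the 45 libraries outside PV interneurons, coloured by region. Proximal CA1 replicate 1 stands highest, at 36.7 CPM, and the 3 SST libraries combine marker sums of 6417 CPM or more with 1.73 CPM of Syt2 or less.

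Syt5 and Syt10 were low in interneurons. Syt5 was at 0.206, 1.78 and 3.41 CPM in the PV libraries. The SST libraries held 28.5, 45.3 and 44.4 CPM, and dorsal CA1 held 116, 113 and 97.7 CPM. These 3 groups did not overlap, and each of the other populations had a mean above that of SST cells. PV was lower than SST 22.2-fold (log2 -4.47, SE 0.65, adjusted p = 0.00131) and lower than dorsal CA1 61.4-fold (log2 -5.94, SE 0.69, adjusted p = 3.60e-05). Without PV replicate 3 these were 39.7-fold and 110.03-fold. SST against dorsal CA1 was not called (log2 -1.47, SE 0.56, adjusted p = 0.0706), but was with the replicate block (0.049) and in the fit to all 48 libraries (0.00111). Syt10 had 0 reads in the 3 PV libraries and 1 read in the 3 SST libraries, against 85, 105 and 13 reads in dorsal CA1. Against a floor of 3 reads per library, PV was at least 21.1-fold lower (adjusted p = 0.0093). By pooled reads dorsal CA1 was 157 times SST (95% exact binomial interval 27.8 to 6218, adjusted p = 0.0227). Without SST replicate 2 the ratio was 99.9, and without SST replicate 3, which held the single read, dorsal CA1 was at least 16.2-fold higher. The SST call was lost without SST replicate 1 (adjusted p = 0.0818), SST replicate 2 (0.0842), dorsal replicate 1 (0.0842) or dorsal replicate 2 (0.0857).

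Syt6 had no read in dorsal CA1 and varied widely within the interneurons, at 14.7, 9.48 and 0.15 CPM in SST cells and 0.619, 6.02 and 0.163 CPM in PV cells. Against the same floor SST cells were at least 68.1-fold higher (adjusted p = 0.00991) and PV cells at least 19.0-fold higher (adjusted p = 0.0199). The SST bound was 40.4-fold without SST replicate 1, and the PV bound 3.28-fold without PV replicate 2. The PV call was lost without PV replicate 2 (adjusted p = 0.0677) or dorsal replicate 1 (0.0531), 2 (0.0543) or 3 (0.0542). Syt7 was lower in SST cells than in dorsal CA1 (120, 133 and 152 CPM, log2 -0.84, SE 0.19, adjusted p = 0.00514). Syt4 was called higher in PV cells than in dorsal CA1 (log2 0.75, SE 0.23, adjusted p = 0.0262) although PV replicate 3, at 226 CPM, overlapped the dorsal libraries. That call was lost without PV replicate 1 (adjusted p = 0.111), PV replicate 2 (0.0999) or dorsal replicate 1 (0.0926), 2 (0.0595) or 3 (0.104). Syt17 was near 13 CPM in all of these, with means of 13.3 ± 4.74 CPM (PV), 13.8 ± 1.71 CPM (SST) and 13.5 ± 9.24 CPM (dorsal CA1). Syt1 was not called between PV and SST cells (adjusted p = 0.165) or between either and dorsal CA1 (0.0817 for SST). The fit to all 48 libraries called it between PV and SST cells (adjusted p = 0.00339) and between SST cells and dorsal CA1 (0.00095). The latter was also called with no filter on low counts (0.0379) and without SST replicate 1 (0.0404).

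**Figure D5:**
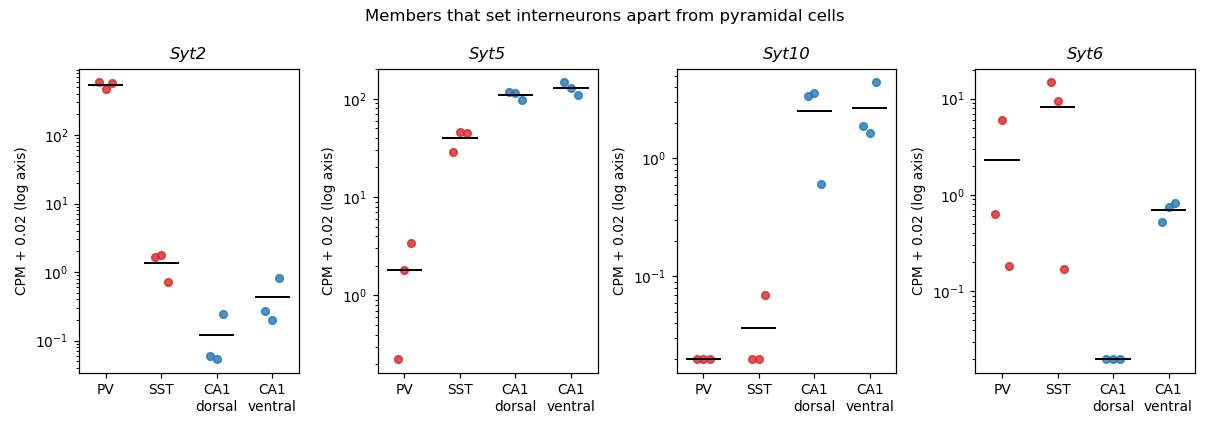
CPM after adding 0.02 (log axes) of Syt2, Syt5, Syt10 and Syt6 in PV and SST interneurons and dorsal and ventral CA1 pyramidal cells; points are libraries and black lines are means over 3. Syt2 is at 468 to 587 CPM in PV cells alone, Syt5 is at 3.41 CPM or less there, and Syt10 has at most 1 read in the 6 interneuron libraries.

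Other genes of the release pathway were counted from a fixed list of 42 genes for SNARE proteins, complexins, active zone proteins and vesicle proteins. Between dorsal and ventral CA1 38 were tested and 17 were called, of which 12 were higher at the ventral end and 5 at the dorsal end, against 15.1% of all genes called. Their median log2 difference was -0.21, beside -0.01 over all genes tested, and that of the 8 synaptotagmins tested was -0.21. The smallest p-values belonged to Sv2b and Syn2, which encode vesicle proteins, Bsn, an active zone scaffold, and the SNARE gene Snap25, and all 4 were higher in ventral cells. In CA3 the split was the other way, with 12 of 40 tested higher at the dorsal end and 3 at the ventral end against 4.97% of all genes called, and a median of 0.40 beside -0.04. In DG, of 40 tested, 7 were higher at the dorsal end and 10 at the ventral end against 19.4% of all genes, with a median of 0.03 beside -0.05.

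Between regions, 23 of the 40 release genes tested were higher in CA3 than in CA1 and 5 were lower against 13.5% of all genes called, with a median log2 difference of CA1 over CA3 of -0.51 beside -0.0022 over all genes. CA3 exceeded DG in 27 and was below it in 6 against 36.5%, with a median of 0.62 beside -0.01. Syt1 had the same direction as the larger number in both cases. Between PV and SST cells 4 of 40 were higher in PV and 8 in SST cells against 6.15%, with a median of 0.02 beside 0.01. The 4 with the smallest p were Cplx2, a complexin (280.6 ± 65.2 CPM in SST and 24.5 ± 5.03 CPM in PV), Synpr, a vesicle protein (619.8 ± 216 and 59.3 ± 21.5 CPM), Vamp1, a vesicle SNARE (75 ± 8.88 and 359 ± 84.5 CPM), and Unc13c, a priming factor (28.5 ± 9.79 and 0.148 ± 0.128 CPM). Vamp1 was the one of these that was higher in PV cells, as Syt2 was.

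Of the 7 other synaptotagmin genes listed, 5 were tested along the CA1 axis and 3 were called, against 15.1% of all genes. Syt13 was lower in dorsal than in ventral CA1, at 22.1 ± 9.11 and 103 ± 23.9 CPM (log2 -2.28, SE 0.25, adjusted p = 2.48e-06). Syt12 and Syt16 were higher in dorsal cells, 1.92-fold (adjusted p = 0.0144) and 1.49-fold (adjusted p = 0.00536). Of 12 relatives with C2 domains, such as the Doc2, rabphilin and extended synaptotagmin genes, 6 were tested and 1, Doc2a, was called against the same share, higher in ventral cells at 2.78 ± 2.00 CPM against 0.125 ± 0.0695 CPM.

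The genes with the most similar pattern were found by Pearson correlation of log2(mean CPM + 1) over the 16 populations, among 10291 genes. The points share libraries, scaling and large differences between a few populations, so the values are a description. For Syt1 they were Hsp90aa1 (r = 0.958), Syt11 (0.954) and Map2k4 (0.934), each highest in dorsal CA3. For Syt2 they were Pthlh (0.952), Pygm (0.946) and Kcng4 (0.933), each highest in PV cells. Syt17 was most like Tenm1 (0.874), Cnih3 (0.845) and Krt77 (0.837), and Syt10 most like Ddx39b (0.912), Pkd1 (0.908) and Rreb1 (0.894). Syt5 was most like Zfp831 (0.935), Ctxn1 (0.934) and Kcna4 (0.934), and Syt4 most like Dph3 (0.930), Dlc1 (0.930) and Ppp2r2b (0.920). Syt7 was most like Klf3 (0.874), Atf6 (0.858) and Atp2b2 (0.853). The values were lower for Syt9, with Oscp1 (0.811), Vegfd (0.792) and Dio3 (0.770). Syt3 had the lowest, with Tbc1d13 (0.783), Bcas3 (0.752) and Lrpprc (0.750). Syt6 was left out, since no population reached a mean of 10 CPM.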

How the data were processed

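The authors deposited raw read counts per Ensembl gene for 48 libraries, and FPKM values per gene and library from Cuffdiff, per the file headers. Per the labels' protocols, RNA from hand-sorted cells received ERCC spike-in RNA and was amplified with Ovation RNA-seq v2. Tools listed in the submitters' processing notes are HTSeq, DESeq2, Cuffdiff 2.1.1 and TopHat2 2.0.6, and mm9 and NCBIM37 are the builds given there. The strand used in counting is not given in the sources used here, so reads of genes that overlap on opposite strands cannot be told apart. Counts were used as deposited, without the 92 ERCC sequences and 5 summary lines, which include reads outside genes (20.4% to 46.7% of a library). Count columns are numbered 1 to 3 and sample titles one less, and each of the 48 count columns resembled most the FPKM replicate whose number is lower by 1. Symbols came from an annotation of another build, joined by identifier (32897 of 37620 genes named), so gene positions in the files' build are not used. No 2 count columns held the same values, and replicates differed by a chi-square of at least 13.0 per degree of freedom. The series calls its 3 libraries biological replicates, but no label ties a library to an animal, so p-values measure the spread between these libraries.

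Comparisons used edgeR 4.0.16 in R 4.3.3 (quasi-likelihood F test, robust dispersion, TMM, filterByExpr), fitted to all genes. Dorsal, intermediate and ventral CA1 shared 1 fit, as did amygdala-projecting, accumbens-projecting and ventral CA1, and PV, SST and dorsal CA1. The region contrasts and interactions came from 1 fit to the 18 libraries of CA1, CA3 and DG at both ends. On simulated counts, the tests of dorsal against intermediate CA1, proximal against distal CA1 and PV against SST cells recovered 7%, 5% and 7% of 2-fold changes. They recovered 73%, 61% and 66% of 4-fold changes (12092, 13482 and 15145 genes). The simulation gave every gene and every fit the same spread. In the data the common biological coefficient of variation of these fits was 0.359, 0.522 and 0.624. The percentages therefore hold for the simulated setting only, in which small changes were mostly missed. Alternatives were DESeq2 1.42.0, RLE size factors, no filter on low counts, a replicate block, a fit to all 48 libraries, and each library left out in turn. Where a group had no read, folds were set against 3 reads per library, and where it had 1 to 3 reads, the ratio carries its 95% interval. The 10 genes and the lists were chosen with earlier results of these data known. All 10 are described. Of the other lists, the 4 genes with the smallest p per comparison could be named, and for likeness the 3 genes with the highest correlation among those with a mean of 10 CPM in some population.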

Additional observations from a re-analysis of the deposited data

Results flagged for a closer look

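In 5 cases the long-axis difference (log2 of dorsal over ventral) itself differed between regions by the interaction test. Syt1 differed between CA1 and CA3 by -0.56 and Syt17 by 2.09. Between CA1 and DG the values were -1.0 for Syt5, -3.38 for Syt17 and -12.30 for Syt9. The Syt9 value rests on dorsal CA1 libraries with 0 to 2 reads and on 1 dorsal DG library with 80 reads, and is no measure of size. Groups of 3 libraries were too small to test for libraries that stand apart.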

How the results depend on the processing

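Of 51 calls of single genes, 34 held under every alternative run, 17 were lost under at least 1 of them, and 0 reversed. Leaving out 1 library at a time lost 12 of the 51 in at least 1 run. The fit to all 48 libraries lost 10, no filter on low counts 2, the replicate block 2, RLE size factors 1 and DESeq2 0. Conversely, 23 results without a call were called under at least 1 alternative, 14 of them by DESeq2, 9 with no filter on low counts, 7 in the fit to all 48 libraries and 2 with the replicate block. Beside those given with the results, these were Syt2 in CA1 against DG (adjusted p = 0.0516), called by DESeq2, RLE factors, no filter, all 48 libraries and without dorsal DG replicate 1 or 3, Syt9 by DESeq2 in CA1 against CA3, CA3 against DG and the CA1 and CA3 interaction and in CA1 against DG without dorsal DG replicate 2, Syt10 in amygdala-projecting against ventral CA1 by DESeq2, Syt4 in dorsal against intermediate CA1 with no filter or without intermediate replicate 1, and, each without 1 library, Syt4 and Syt3 in the interactions. The number of called synaptotagmins moved by more than 1.5 times in these cases, and the cause was not tested. Brackets, where given, hold the calls over all genes, main fit first. These moved the same way, except for the interaction of CA1 and CA3 without the filter or with RLE factors. In the fit to all 48 libraries the number was 1 for dorsal against intermediate CA1 (599 and 101) and 1 for intermediate against ventral CA1 (611 and 80). It was 1 for amygdala- against accumbens-projecting cells (3 and 354) and 2 for accumbens-projecting against ventral CA1 (265 and 915). For the interaction of CA1 and CA3 it was 0 (547 and 296). Without the filter it was 1 for proximal against distal (135 and 301) and 1 for superficial against deep (311 and 511). It was 2 for accumbens-projecting against ventral CA1 (265 and 543) and 1 for the CA1 and CA3 interaction (547 and 619). RLE factors also gave 1 for that interaction (547 and 560). DESeq2 gave 1 for proximal against distal (135 and 773), 3 for superficial against deep (311 and 913) and 1 for amygdala- against accumbens-projecting (3 and 385). Against ventral CA1 it gave 2 for amygdala-projecting (309 and 943) and 2 for accumbens-projecting cells (265 and 922). Leaving out each library in turn gave 0 to 2 for superficial against deep, 0 to 2 for accumbens-projecting against ventral CA1, 2 to 5 for DG, 1 to 3 for the CA1 and CA3 interaction, 2 to 5 for the CA1 and DG interaction and 3 to 5 for PV against dorsal CA1. No pairing by replicate number was seen, since in no comparison did every same-numbered pair of deviations correlate above 0.1. Libraries that share an animal under different numbers would not be found this way, so whether samples are paired is unknown. With the replicate block the count was 1 (Syt17) for superficial against deep and 1 for the CA1 and CA3 interaction, and in SST against dorsal CA1 Syt10 was lost (adjusted p = 0.0716) and Syt5 gained (0.049). The setting without both libraries highest in GABAergic markers was chosen after seeing the data. Genes below about 3 reads per library (Syt2, Syt6, Syt9 and Syt10 in several populations) are limited by depth, which was lowest in ventral CA1.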
